A study of Mus musculus with 7 samples.

Results

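The regions described here were Runx3-bound regions of resting CD8-positive T cells (CD8-TC) that carried the enhancer mark H3K4me1 and lay between 1 and 5 kb from a transcription start site (TSS). They were chosen by measured positions: a Runx3-bound region had to overlap an H3K4me1-marked region by 1 bp or more, and its midpoint had to lie at least 1 kb and less than 5 kb from the nearest TSS of any transcript in the GENCODE annotation of the mouse genome build NCBIM37 (mm9). This rule took 694 of the 4934 Runx3-bound regions (14.1%). They are called the 1-5 kb regions below. The marked regions closer than 1 kb (905 proximal regions) and those at 5 to 50 kb (1845 remote regions) were the classes next to them, and a further 66 regions at 1 to 5 kb carried no H3K4me1.

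Splenic CD8-TC of wild-type ICR mice were analysed by ChIP-seq, the sequencing of immunoprecipitated chromatin. The labels give 18 mice, of unstated age, for each library, and do not say whether libraries shared them. The cells were enriched with magnetic beads that bind CD8 and were fixed without stimulation. The 7 libraries formed 3 groups: Runx3 (3 libraries of 2 immunoprecipitations, with a polyclonal antiserum made in house), H3K4me1 (2 libraries, with a monoclonal antibody), and non-immune rabbit serum, NIS (2 libraries, the control). Each deposited list of regions was called on joined repeats against NIS and holds positions only, without read counts, heights or values per repeat. The lists therefore give no depth for a region, no value has a replicate error, and the 95% intervals given cover counting error over regions, of which close neighbours are not independent.

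Runx3 is a DNA-binding transcription factor of the Runt family. It binds the RUNX motif as a heterodimer with Cbfb, and in CD8-TC it is known for silencing Cd4 and for its role in cytotoxic T cell development. Monomethylation of histone H3 at lysine 4 marks enhancers and the shoulders of promoters, whereas the nucleosomes next to an active TSS usually carry trimethylation instead. ETS factors such as Ets1 are frequent partners of Runx proteins on enhancers of T cell genes.

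The sequences shown first are the central 200 bp of regions at genes of known function, as the plus strand of NCBIM37, with every RUNX motif in capitals. The RUNX motif was any of TGTGGT or TGTGGC or TGCGGT or TGCGGC on either strand, so that ACCACA, for example, is TGTGGT on the other strand. The first region lies in the first intron of Cd4, the intron that holds the Cd4 silencer. The others are the leading regions, by number of RUNX motifs, of lists for T cell receptor (TCR) signalling, MHC class I, cytokine receptors, effector molecules and trafficking.

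Cd4, chr6:124835974-124836173: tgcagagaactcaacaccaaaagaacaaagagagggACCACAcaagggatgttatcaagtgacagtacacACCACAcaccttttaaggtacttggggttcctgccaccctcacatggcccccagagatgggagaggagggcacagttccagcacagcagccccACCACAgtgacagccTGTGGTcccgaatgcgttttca

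Dgkz, chr2:91802203-91802402: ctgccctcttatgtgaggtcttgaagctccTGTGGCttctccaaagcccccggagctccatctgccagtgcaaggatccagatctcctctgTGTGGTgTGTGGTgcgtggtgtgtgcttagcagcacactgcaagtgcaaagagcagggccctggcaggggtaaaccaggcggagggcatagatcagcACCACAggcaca

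Tap2, chr17:34347575-34347774: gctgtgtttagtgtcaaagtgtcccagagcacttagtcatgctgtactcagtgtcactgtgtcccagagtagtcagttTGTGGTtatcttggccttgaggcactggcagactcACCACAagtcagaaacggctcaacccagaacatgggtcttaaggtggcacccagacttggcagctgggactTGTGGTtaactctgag

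Il21r, chr7:132750934-132751133: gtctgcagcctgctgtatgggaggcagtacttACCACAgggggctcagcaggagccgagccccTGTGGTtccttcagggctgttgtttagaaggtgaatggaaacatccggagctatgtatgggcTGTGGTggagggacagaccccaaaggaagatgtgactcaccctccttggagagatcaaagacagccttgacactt

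Ccl5, chr11:83348648-83348847: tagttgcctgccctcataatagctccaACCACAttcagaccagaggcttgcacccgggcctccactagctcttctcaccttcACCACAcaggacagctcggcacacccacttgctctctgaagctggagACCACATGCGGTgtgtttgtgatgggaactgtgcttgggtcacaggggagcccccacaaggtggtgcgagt

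Selplg, chr5:114282617-114282816: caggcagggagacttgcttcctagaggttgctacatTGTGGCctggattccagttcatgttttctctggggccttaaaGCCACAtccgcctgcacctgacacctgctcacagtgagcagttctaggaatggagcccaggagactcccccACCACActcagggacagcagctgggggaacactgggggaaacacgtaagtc

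The Cd4 window held 4 RUNX motifs, all of them TGTGGT, and the whole Cd4 region of 885 bp (chr6:124835632-124836516) held 7. The Dgkz and Ccl5 windows also held 4 each, and those of Tap2, Il21r and Selplg held 3. These windows were picked for their motif numbers. Over all 694 regions, 319 windows held 1 motif, 152 held 2, 61 held 3, 13 held 4 and 4 held more, and 145 windows (20.9%) held none.

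The first comparison asked where these regions lay relative to their TSS. Of the 694 midpoints, 380 (54.8%, Wilson interval 51.0 to 58.4%) lay downstream of the nearest TSS and 314 upstream. The median distance was 2451.5 bp (order-statistic interval 2331 to 2611 bp). The bins next to 1 kb held more regions than those next to 5 kb, unevenly between: 72 regions lay 1 to 1.5 kb upstream and 26 lay 4.5 to 5 kb upstream, against 57 and 36 downstream. The downstream share exceeded that of proximal regions (36.9%, odds ratio 2.07, interval 1.69 to 2.53, adjusted exact p = 3.57e-12 in a two-sided Fisher's exact test with Benjamini-Hochberg adjustment over 19 tests of position). It did not differ detectably from that of remote regions (53.2%, odds ratio 1.06, interval 0.893 to 1.27, adjusted exact p = 0.531).

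**Figure D1:**
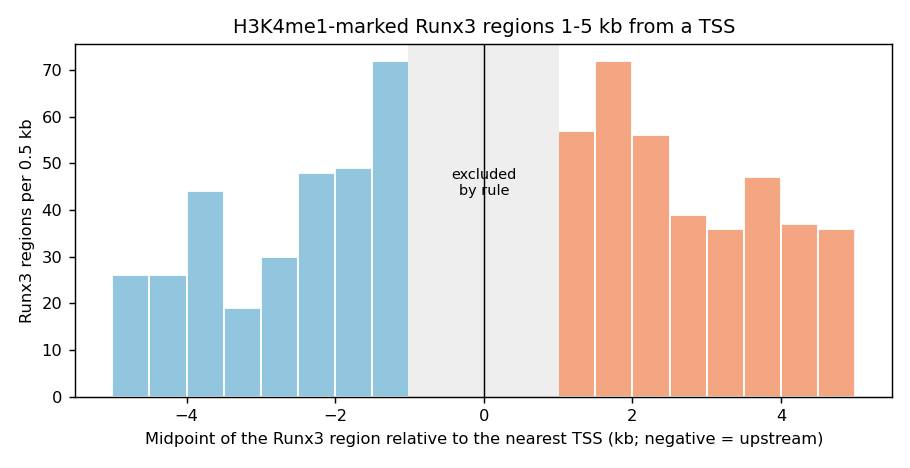
Number of H3K4me1-marked Runx3-bound regions in bins of 0.5 kb of signed distance from the nearest TSS (kb, negative upstream). Blue bars are the 314 upstream and orange bars the 380 downstream regions, the grey band is the distance left out by the rule, and the tallest bars, with 72 regions each, lie 1 to 1.5 kb upstream and 1.5 to 2 kb downstream.

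Introns held most of the midpoints. A midpoint lay in an intron in 458 regions (66.0%), between genes in 194 (28.0%), in an exon with untranslated sequence in 18, in a non-coding exon in 16 and in a coding exon in 8. An annotated gene held 72.0% of the midpoints, against 56.7% for remote regions and 61.4% for proximal regions. A first intron of an annotated transcript held 340 midpoints (49.0%), against 26.3% of remote regions and 24.1% of proximal regions. Distance to the TSS, which the rule fixed, also limits where a first intron can lie, and these shares are given as a description. Among downstream regions the first intron share was 65.8%, and among upstream regions, which can lie in a neighbouring gene or in a longer transcript of the same gene, it was 28.7%.

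H3K4me1 cover is given as a description, without p-values, since overlap with the mark and distance were used in the rule. Of the 694 regions, 528 (76.1%, interval 72.8 to 79.1%) were covered by H3K4me1 from end to end, and the midpoint was inside the mark in 643 (92.7%, interval 90.5 to 94.4%). Proximal regions, which met the same overlap criterion, were fully covered in 24.3% and had a marked midpoint in 52.9%. Remote regions were fully covered in 77.1% and had a marked midpoint in 93.4%. The median H3K4me1-marked region at a 1-5 kb region was 3298.5 bp wide (3071 to 3559 bp). At proximal regions it was 1538 bp and at remote regions 2981 bp wide. The median Runx3-bound region was 877.5 bp wide (862 to 896 bp), with extremes of 415 and 1928 bp. Medians were 853 bp for proximal and 888 bp for remote regions. Widths were compared as the share of regions above the median of both classes joined. This share did not differ detectably from that of proximal regions (52.9 against 47.3%, adjusted exact p = 0.0518) or remote regions (48.4 against 50.6%, adjusted exact p = 0.443).

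**Figure D2:**
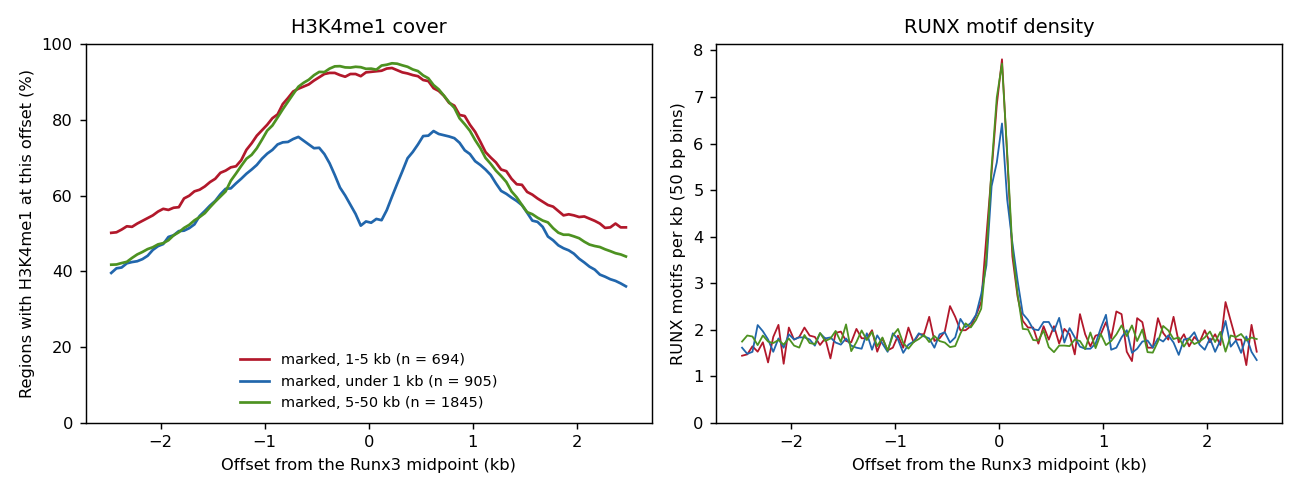
Left, share of regions (%) with H3K4me1 at each offset from the Runx3 midpoint (kb), and right, RUNX motifs per kb in 50 bp bins, for marked regions at 1-5 kb (red, n = 694), under 1 kb (blue, n = 905) and at 5-50 kb (green, n = 1845). H3K4me1 cover at the midpoint is 92.7% in the red and 52.8% in the blue profile, which dips there, and motif density peaks at the midpoint in all of these classes.

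In 51 regions (7.35%) the mark overlapped the Runx3-bound region but not its midpoint. In 19 of these the midpoint lay in a gap between 2 marked regions. This form was found in 2.74% of all 694 regions and in 14.9% of all proximal regions. In the other 32 of the 51 the mark lay on one side only, away from the TSS in 20 and towards it in 12. Cd3d and Nkg7, named after their values were seen, had a region with an unmarked midpoint. The Cd3d region in the first intron of this CD3 chain gene (chr9:44792124-44793046) was 49.9% covered and had its midpoint in a gap between 2 marked regions. The region at Nkg7, a gene for a protein of cytotoxic granules (chr7:50693705-50694543), was 33.6% covered, by 1 marked region.

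H3K4me1 at the nearest TSS itself was less common. The TSS lay in a marked region for 303 of the 694 regions (43.7%, interval 40.0 to 47.4%). This share was 27.2% for remote regions and 39.9% for proximal regions (interval 36.7 to 43.1%). For 182 of the 694 regions (26.2%) the same marked region reached from the Runx3-bound region to the TSS, against 38.9% of proximal regions. The share with a marked TSS was 50.8% for regions 1 to 2 kb away, 49.7% at 2 to 3 kb, 37.7% at 3 to 4 kb and 28.0% at 4 to 5 kb. A single marked region reached to the TSS in 38.0, 32.4, 14.4 and 8% of these bins, and in 1.46% of remote regions. Distance was used in the rule, and these steps were not tested. The share also varied with the kind of promoter, with intervals that did not overlap and no test made: where the 1 kb around the TSS was CpG-rich (204 regions), the TSS was marked in 18.6% (interval 13.9 to 24.5%), and where it was not (490 regions) in 54.1% (interval 49.7 to 58.4%). CpG-rich means a GC content over 50% and a ratio of observed to expected CpG over 0.6. CpG-rich TSSs were rarer than at proximal regions (29.4 against 53.5%, adjusted exact p = 1.33e-21) and their share did not differ detectably from that at remote regions (31.7%, odds ratio 0.897, interval 0.741 to 1.08).

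**Figure D3:**
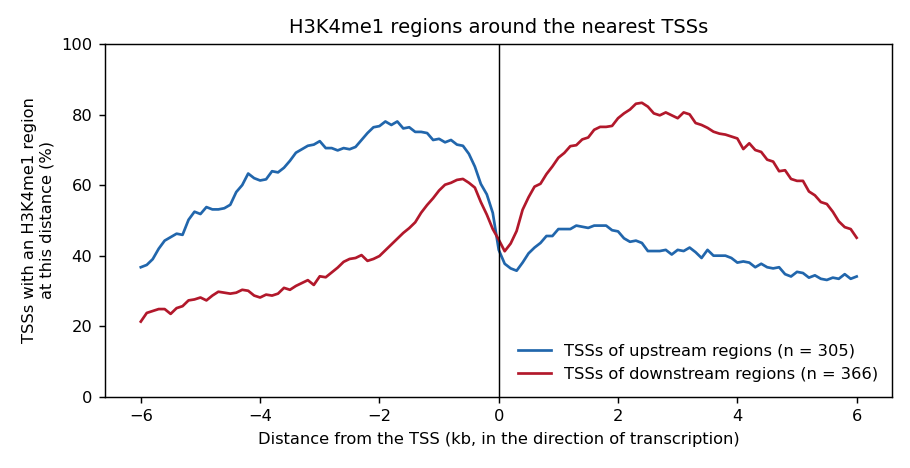
Share (%) of the distinct nearest TSSs with an H3K4me1-marked region at each distance (kb, in the direction of transcription), for the 305 TSSs of upstream regions (blue) and the 366 TSSs of downstream regions (red). Cover peaks on the side chosen by the rule (78.0% at 1900 bp upstream, 83.3% at 2400 bp downstream), dips to 35.7 and 41.3% just past the TSS, and rises again on the other side, to 48.5 and 61.7%.

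The dip at the TSS was seen on both sides. For downstream regions, H3K4me1 covered 83.3% of TSS surroundings at 2400 bp, 41.3% at 100 bp past the TSS and 61.7% at 600 bp before it. For upstream regions the respective values were 78.0% at 1900 bp before the TSS, 35.7% at 300 bp past it and 48.5% at 1600 bp past it. The TSSs were chosen for a marked region nearby, and no set of TSSs chosen without the rule was compared.

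Runx3-bound regions had neighbours. Another Runx3 midpoint lay within 10 kb of 191 regions (27.5%, interval 24.3 to 31.0%), more often than for proximal regions (15.2%, odds ratio 2.11, adjusted exact p = 5.28e-09), and the difference from remote regions was not detectable (24.3%, odds ratio 1.18, interval 0.972 to 1.44, adjusted exact p = 0.159). A Runx3 midpoint lay within 1 kb of the nearest TSS for 54 regions (7.78%), against 6.83% of remote regions (adjusted exact p = 0.516). For most 1-5 kb regions, therefore, no Runx3-bound region was called at this nearest TSS. Other TSSs of the same gene were not checked.

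Motif content was compared next. It was not used to choose the regions. A RUNX motif lay in the central 200 bp of 549 of 694 regions (79.1%, interval 75.9 to 82.0%). Windows of the same length 5 kb to each side held one in 31.5% (odds ratio 8.24, interval 6.64 to 10.2, adjusted exact p = 1.34e-95, two-sided Fisher's exact test adjusted over 54 motif tests), and midpoint windows of all 76705 H3K4me1-marked regions held one in 32.4%. Motif density was 6.83 and 7.81 per kb in the 50 bp on either side of the midpoint, against a median of 1.82 per kb beyond 1 kb. Where a window held a motif, the nearest one lay a median of 33 bp from the midpoint (interval 30 to 36 bp), although the deposited regions give no summit. In the whole region a motif was found in 667 regions (96.1%), against 78.7% of flanks of the same width (odds ratio 6.67). Of the 1388 flank windows, 21.9% had their midpoint within 1 kb of a TSS and 1.95% touched a Runx3-bound region. Without such windows the odds ratio was 8.51.

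**Figure D4:**
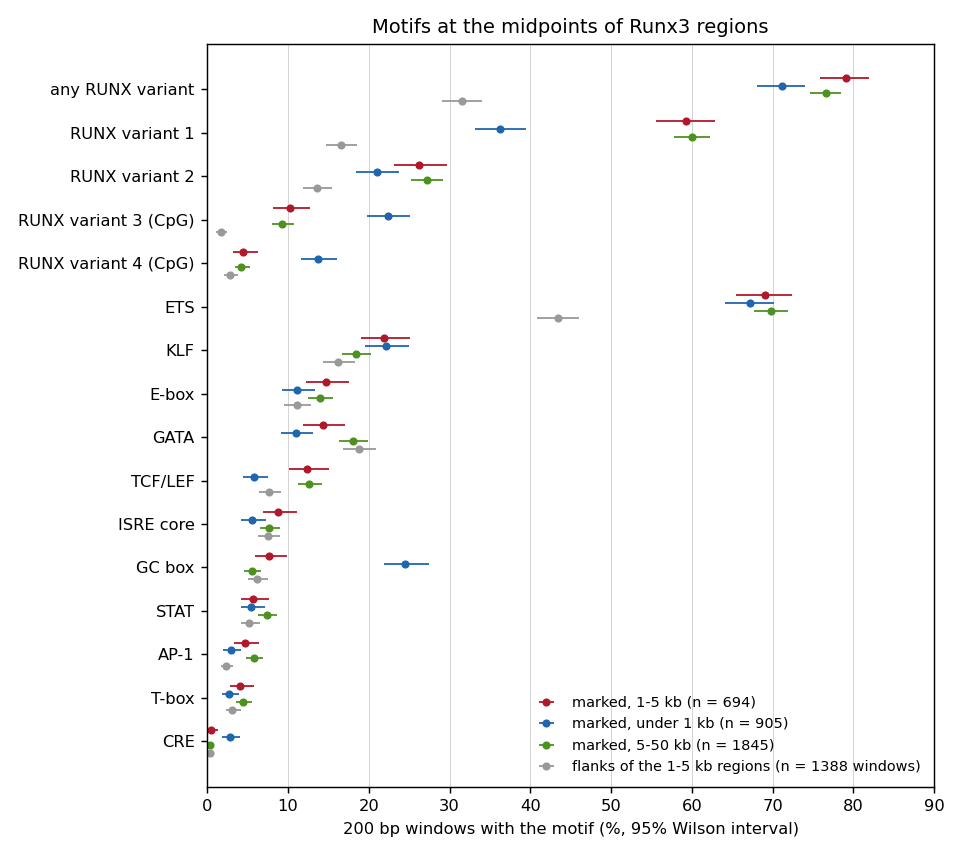
Share (%) of 200 bp windows with each motif on either strand, with 95% Wilson intervals, for marked Runx3-bound regions at 1-5 kb (red, n = 694), under 1 kb (blue, n = 905) and at 5-50 kb (green, n = 1845), and for 1388 windows 5 kb from the 1-5 kb regions (grey). RUNX variants 1 to 4 are TGTGGT and TGTGGC and TGCGGT and TGCGGC in this order, and red lies next to green and away from blue for variants 1, 3 and 4 and for the GC box.

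The variants of the RUNX motif set the 1-5 kb regions apart from proximal regions. The common form TGTGGT was in 411 windows (59.2%) against 36.2% of proximal windows (odds ratio 2.55, interval 2.09 to 3.13, adjusted exact p = 4.60e-19). The forms with a CpG were rarer than in proximal windows: TGCGGT was in 10.2% against 22.3% (odds ratio 0.397, interval 0.296 to 0.531, adjusted exact p = 4.79e-10) and TGCGGC in 4.47% against 13.7% (odds ratio 0.294, adjusted exact p = 1.13e-09). TGTGGC was in 26.2% against 21.0% (odds ratio 1.34, adjusted exact p = 0.0372). Against flanks, TGCGGT was more frequent (1.66% of flanks, odds ratio 6.76, adjusted exact p = 1.43e-16), as were TGTGGT (16.5%, odds ratio 7.35, adjusted exact p = 1.33e-84) and TGTGGC (13.5%, odds ratio 2.27, adjusted exact p = 2.47e-11). TGCGGC did not pass against flanks (2.81%, odds ratio 1.62, adjusted exact p = 0.103). Among windows with a RUNX motif, 7.65% of the 1-5 kb regions (42 of 549) had CpG forms alone, against 29.8% of proximal regions. Base composition moved with this difference. Median GC content was 48.5% in 1-5 kb windows and 54.0% in proximal windows, with a median of 2 and 8 CpG per window, and its part in the result was not tested. The share with any RUNX motif was higher than in proximal regions (79.1 against 71.2%, odds ratio 1.53, adjusted exact p = 0.00127). This difference did not pass when only regions with a marked midpoint were compared (odds ratio 1.30, adjusted exact p = 0.176). Nor did it pass over the whole region (96.1 against 94.9%, odds ratio 1.32, adjusted exact p = 0.417).

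No difference in RUNX motifs from remote regions was detected. They held any RUNX motif in 76.6% (odds ratio 1.16, interval 0.936 to 1.43, adjusted exact p = 0.302), TGTGGT in 60.0% (odds ratio 0.968, interval 0.811 to 1.16), TGTGGC in 27.2% (odds ratio 0.954, interval 0.782 to 1.16), TGCGGT in 9.27% (odds ratio 1.12, interval 0.833 to 1.49) and TGCGGC in 4.23% (odds ratio 1.06, interval 0.692 to 1.62). Within the 1-5 kb regions the share with a RUNX motif was 80.0% at 1 to 2 kb, 79.2% at 2 to 3 kb, 81.5% at 3 to 4 kb and 74.4% at 4 to 5 kb, with overlapping intervals. It was 79.0% upstream and 79.2% downstream of the TSS. At CpG-rich TSSs it was 76.0%, and TGCGGT was in 10.3% of these windows against 10.2% at other TSSs.

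ETS motifs were the most frequent of the partner motifs searched. The motifs differ in length and in the number of sequences allowed, so their shares are not directly comparable. One of AGGAAA or AGGAAG or CGGAAA or CGGAAG was in 479 windows (69.0%) against 43.4% of flanks (odds ratio 2.90, interval 2.39 to 3.52, adjusted exact p = 1.31e-27), 67.2% of proximal windows and 69.8% of remote windows. An ETS motif lay within 50 bp of a RUNX motif in 291 regions (41.9%), against 7.85% of flank windows (odds ratio 8.47, interval 6.62 to 10.8). Each motif alone was also more frequent than in flanks, and the part of this in the pair share was not tested. The differences from proximal regions (36.4%, odds ratio 1.26, adjusted exact p = 0.0584) and remote regions (41.4%, odds ratio 1.02, adjusted exact p = 0.910) did not pass. Spacing was varied: each arrangement of order, strand and gap was found in at most 7 regions (1.01%). In 24 regions (3.46%) the 2 motifs shared bases, against 1 of 1388 flank windows. Pairs of RUNX motifs within 50 bp were in 174 regions (25.1%), against 2.74% of flanks and 18.8% of proximal regions (odds ratio 1.45, adjusted exact p = 0.00833), and remote regions held them in 25.4%. Among all 2080 distinct 6-mers, the rise over flanks was largest for ACCACA, and AGGAAG ranked 5 with 46.4 against 24.4% of windows.

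Other motifs were less frequent. Against flanks, the shares were higher for TCF/LEF (CTTTGAA or CTTTGAT, 12.4 against 7.64%, adjusted exact p = 0.00192), KLF (CCACCC, 21.9 against 16.2%, adjusted exact p = 0.0057), AP-1 (TGACTCA or TGAGTCA, 4.61 against 2.31%, adjusted exact p = 0.0197) and the E-box CAGCTG (14.7 against 11.1%, adjusted exact p = 0.0480). The GATA motif (AGATAA or TGATAA) was rarer in the regions than in flanks (14.3 against 18.7%, adjusted exact p = 0.0329). T-box (GGTGTGA), STAT, ISRE core, CRE and GC box (GGGCGG) did not pass the test against flanks. Proximal regions held the GC box more often (24.5 against 7.64% in the 1-5 kb regions, odds ratio 0.254, adjusted exact p = 3.73e-19), and likewise CRE, which was rare in both (2.76 against 0.432%, odds ratio 0.153, interval 0.0460 to 0.508, adjusted exact p = 0.00127). TCF/LEF, the motif of Tcf7 and Lef1, was less frequent in proximal regions (5.75 against 12.4%, odds ratio 2.32, adjusted exact p = 1.67e-05). ISRE core was also more frequent than in proximal regions (8.79 against 5.52%, adjusted exact p = 0.0347), and its letters can overlap an ETS motif. Median GC content was 48.5% in 1-5 kb and 54% in proximal windows, and its part in these motif differences was not tested. None of the 18 comparisons with remote regions passed, the nearest being GATA (14.3 against 18.0%, adjusted exact p = 0.0571).

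The 66 regions at the same distances without H3K4me1 are described for comparison. They held a RUNX motif in 37.9% of windows (interval 27.1 to 49.9%) and an ETS motif in 45.5% (interval 34.0 to 57.4%). Their widths had a median of 716.5 bp (687 to 768 bp), with a median GC content of 40.8%. A neighbour within 10 kb was found for 2 of them. H3K4me1 was used in the rule, so these values are given without a test.

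The third comparison concerned genes. The nearest TSS belonged to a protein-coding gene for 564 regions (81.3%), and the 694 regions were nearest to 647 genes, 606 of which had 1 region. Of 22208 annotated protein-coding genes, 521 (2.35%) were nearest to a 1-5 kb region and 2719 (12.2%) to any Runx3-bound region. The lists of T cell genes held larger shares, as did the list of genes of other lineages. The lists were made for T cells, with earlier results on these regions known, and the shares are descriptions.

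**Figure D5:**
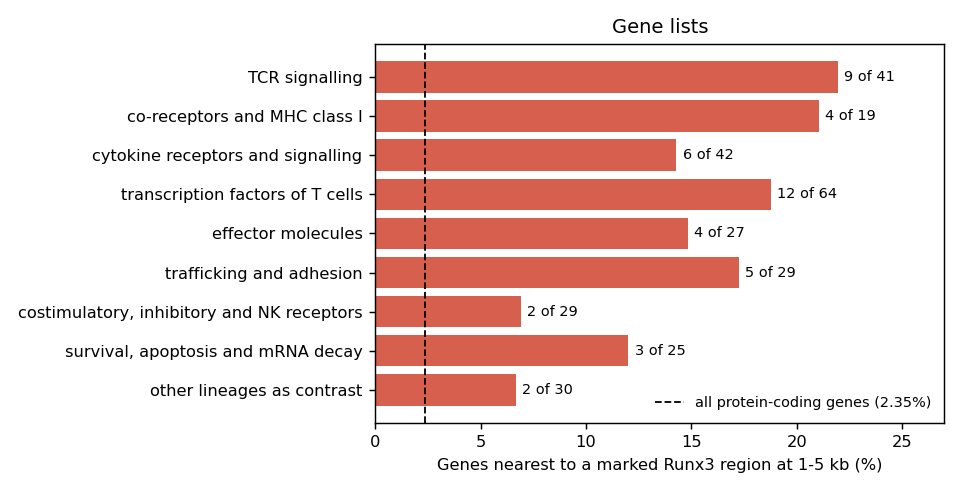
Share (%) of the genes of each list that were nearest to a marked Runx3-bound region at 1-5 kb, with the number of genes beside each bar. The dashed line is the share over all protein-coding genes (2.35%), and all bars, the 6.67% of genes of other lineages included, pass it.

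TCR signalling had the largest share among the lists, close to that of co-receptors and MHC class I (4 of 19, 21.1%). Of 41 genes, 9 (22.0%) were nearest to a 1-5 kb region and 33 to any Runx3-bound region. The region in the first intron of Dgkz, a diacylglycerol kinase that limits TCR signals, lay 1511 bp downstream of the TSS (chr2:91801843-91802764) in a marked domain of 6558 bp. Plcg1, the phospholipase downstream of the TCR, had a region 2080 bp downstream (chr2:160582184-160583260) with 3 RUNX motifs in 200 bp and 8 in all. Cd3d had 2 regions, at 2709 and 4848 bp, the second of which (chr9:44794268-44795180) had its midpoint in an exon with untranslated sequence. The region at Csk, the kinase that restrains Lck and Fyn, lay 1160 bp upstream (chr9:57494143-57495097). Regions also lay at the kinase genes Fyn and Lck, at Sit1 and Sla2, which encode adaptors, and at Nfatc3, an NFAT transcription factor. The Fyn region was in a marked domain of 8672 bp and that of Nfatc3 in one of 8246 bp. The central windows of the Lck, Sla2 and Nfatc3 regions held no RUNX motif, and their whole regions held 2, 2 and 1.

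Of 19 genes for co-receptors and MHC class I, 4 had a region. At Cd4, the helper T cell co-receptor, the region lay 2143 bp downstream of the nearest TSS and was 65.6% covered by an H3K4me1-marked region of 1455 bp, and the TSS itself was not marked. At Cd8a, the CD8 alpha chain, the region lay 3778 bp upstream (chr6:71319183-71320103), was fully covered and had 1 TGTGGT in its centre. Tap2, a subunit of the peptide transporter of MHC class I loading, had a region at 3024 bp (chr17:34347282-34348068), with its 3 motifs all TGTGGT. The region at H2-D1, an MHC class I heavy chain, was among the 3 widest (1907 bp, chr17:35394829-35396735), lay 3893 bp upstream and had a second Runx3-bound region at the TSS. Class I genes have near-identical copies, and reads that matched several copies were left out by the authors, who kept reads with a single match.

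Cytokine receptors and their signalling proteins had regions at 6 of 42 genes (14.3%). The Il21r region lay in the first intron, 4026 bp from the TSS (chr7:132750544-132751524), and its 3 central motifs, shown above, were all TGTGGT. At Stat5b, which transmits IL-2 and IL-7 signals, the region lay 1658 bp upstream of the nearest TSS, inside the first intron of a longer transcript (chr11:100685050-100685951), in a domain of 11103 bp. Stat4 had 2 regions in the same marked domain of 4925 bp, at 3255 and 4698 bp (chr1:52067830-52068857 and chr1:52069303-52070269). The region at Smad7, an inhibitor of TGF-beta signals, lay in a domain of 18289 bp. Tyk2 and Smad3 had 1 region each.

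Transcription factors had regions at 12 of 64 genes (18.8%). The region in Runx1, the paralogue of Runx3, lay 3884 bp downstream of a TSS (chr16:92821884-92822861) in a domain of 10640 bp and held 8 RUNX motifs, of which 1 was in the central 200 bp shown here.

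Runx1, chr16:92822272-92822471: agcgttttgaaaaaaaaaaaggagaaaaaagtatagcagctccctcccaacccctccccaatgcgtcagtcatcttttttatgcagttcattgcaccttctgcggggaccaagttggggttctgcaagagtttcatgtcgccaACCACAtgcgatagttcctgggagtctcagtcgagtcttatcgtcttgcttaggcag

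The region in the first intron of Nfkb1, an NF-kB subunit, held 6 motifs (chr3:135328448-135329303). The region at Lef1, a partner of beta-catenin in T cells, lay 4988 bp from the TSS, close to the outer limit of the rule, and had another Runx3-bound region at the TSS (chr3:130819971-130821453). Bach2, a repressor that keeps T cells from effector differentiation, had a region at 1445 bp that was 86.5% covered (chr4:32335830-32336538). The other 8 genes were Klf3, Klf13, Fli1, Ets1, Etv3, Satb1, Egr1 and Rel, of which Fli1, Ets1 and Etv3 encode ETS proteins.

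Effector molecules had regions at 4 of 27 genes. The region 4728 bp upstream of Ccl5, a chemokine of memory and activated T cells (chr11:83348324-83349172), had 4 central motifs, 3 TGTGGT and 1 TGCGGT. The Nkg7 region lay at 1624 bp, between annotated genes, and had 2 central motifs and a Runx3-bound region at the TSS. Prf1, which encodes perforin, had a region at 3395 bp (chr10:60763624-60764335) with 2 Runx3-bound neighbours within 10 kb and an H3K4me1-marked region of only 651 bp. The region at Tnf (chr17:35337312-35337905) was fully covered but held no RUNX motif over its 594 bp.

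Trafficking and adhesion genes had regions at 5 of 29 (17.2%). Selplg, which encodes the selectin ligand PSGL-1, had one 2207 bp upstream of a TSS (chr5:114282200-114283235) and one in the first intron at 4627 bp (chr5:114275390-114276241). Both were fully covered and had a Runx3-bound region at the TSS. Cd69, which retains T cells in tissue, had one at 1541 bp in the first intron (chr6:129223442-129224251), and the chemokine receptor Ccr2 had one 1563 bp upstream (chr9:124014718-124015535). The integrin genes Itga4 and Itgae had 1 each, without a motif in the central 200 bp.

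Of 29 costimulatory, inhibitory and NK receptors 2 (6.90%, beside 2.35% of all protein-coding genes) had a region, Slamf6 at 3521 bp and Cd27 at 4925 bp upstream, and 18 were nearest to some Runx3-bound region. Neither central window held a RUNX motif. Of 25 genes for survival, apoptosis and mRNA decay, 3 had one. Zfp36, which destabilises cytokine mRNAs, had 2 within the same marked domain of 7534 bp, at 3986 and 4856 bp upstream (chr7:29167789-29168732 and chr7:29168739-29169521), and the first held 8 motifs in all. Casp8 had a region with 2 central motifs at 2196 bp and Btg1 one at 4420 bp with none. Genes of other lineages had 2 of 30, among them Itgam, a myeloid and NK cell integrin chain (chr7:135263262-135264134). The window of Zfp36 is shown to set a CpG variant beside the others.

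Zfp36, chr7:29168160-29168359: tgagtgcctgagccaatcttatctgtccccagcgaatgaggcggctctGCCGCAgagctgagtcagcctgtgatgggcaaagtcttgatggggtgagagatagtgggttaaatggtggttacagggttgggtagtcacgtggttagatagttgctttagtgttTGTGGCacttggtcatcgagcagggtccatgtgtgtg

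H3K4me1 was also checked at marker genes of cell types, over the gene and 5 kb to each side. The CD8 loci Cd8a and Cd8b1 were marked over 34.9 and 50.4% of their length, and 7 loci of T cells in general (Cd3e, Cd3d, Cd3g, Cd247, Cd2, Cd5 and Lck) over 35.2% (Cd3d) to 94.0% (Cd2). Of the CD4 T cell loci, Zbtb7b was marked over 60.6%, more than each of these loci but Cd2, Cd40lg over 26.9%, Foxp3 over 11.9% and Cd4 over 10.6%. Of 3 NK cell loci, Klrb1c was marked over 15.8% and Ncr1 and Klra8 held no marked region. The B cell loci Pax5, Ms4a1, Cd79a and Cd79b were marked, over 20.9% (Pax5) to 83.5% (Cd79b). Of 5 myeloid loci 4 were marked, up to 27.1% (Itgam), and Lyz2 was not. The part of other spleen cells in the H3K4me1 signal was not tested.

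Several genes had clusters of regions. Pdcd4, an inhibitor of translation, had 4 regions over chr19:53963892-53981192, at 2379 bp upstream and 1471 bp downstream of one TSS and at 3123 bp upstream and 2912 bp downstream of a second TSS, and these lay in marked domains of 9443, 5199 and 4660 bp. Ablim1, an actin-binding protein, also had 4, of which the 2 at 4707 and 2106 bp shared a domain of 3333 bp and the 2 at 3180 and 2085 bp a domain of 8754 bp. Tpst2, a sulphotransferase that acts on tyrosines, had 3, 1 of them in a domain of 26500 bp, the widest at any 1-5 kb region. Gtf2i, a general transcription factor gene, had 3, 2 of which had an unmarked midpoint. The narrowest regions were at Prss12 (415 bp), Ahnak (439 bp) and Mthfd2 (447 bp), and the widest at Gimap9 (1692 bp), H2-D1 and Gm16534 (1928 bp).

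At the limits of the rule, the regions just inside 1 kb were at Dusp2 (1000 bp) and Polr3e (1008 bp), and just outside it at Slfn8 (997 bp) and Plec (987 bp). At 5 kb, those at S100a10 (4996 bp) and Xpo6 (4992 bp) were inside and those at B230118H07Rik (5001 bp) and Slc6a6 (5002 bp) outside. The smallest overlaps with H3K4me1 were 38 bp (Hivep2) and 40 bp (A430078G23Rik), and the nearest regions without overlap were 25 bp (Prpf4b) and 31 bp (Gm3828) from a mark. By chromosome, the share of Runx3-bound regions that met the rule ran from 6.52% on chromosome X (9 of 138) to 21.3% on chromosome 11 (71 of 334).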

How the data were processed

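ChIP-seq was performed on CD8-TC with antibodies to Runx3 and H3K4me1 and with NIS. Per the labels and the study's methods, the authors aligned reads of 40 to 42 bp from fragments of about 300 bp to mm9 with ELAND, and the submitters' processing notes name CASAVA 1.6 and 1.7. Reads with more than a single match were dropped. The authors called regions with MACS on joined repeats against NIS, after scaling the larger data set to the smaller one. The deposited lists give start and end positions in bp (other than names, no score, signal or count), so depth per region and per library could not be computed from them and no replicate was tested. The study's methods give totals of reads for the joined sets, which were not used here.

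Starts were moved to 1-based positions. All regions lay within the NCBIM37 chromosomes. Classes, features and TSSs came from the GENCODE annotation of that build, with protein-coding genes preferred at ties. Motifs were counted as exact words on both strands in the 200 bp around each midpoint and in windows 5 kb to each side. Shares have Wilson intervals, medians order-statistic intervals and odds ratios Woolf intervals, all at 95%. Fisher's exact test, two-sided, compared the classes, and p-values were adjusted by Benjamini-Hochberg over 54 motif and 19 position tests, with 0.05 as threshold. The 19 include tests of H3K4me1 cover and width, a marked TSS, gene overlap and GC content, whose p-values are not given. Flank windows of 1 region are not independent of it or of each other. Other motif words were STAT TTCNNNGAA, ISRE core GAAANNGAA and CRE TGACGTCA. The computations were tested on simulated data and used Python 3.11.15, numpy 2.4.6, pandas 2.3.3, scipy 1.17.1, statsmodels 0.14.6 and matplotlib 3.10.9.

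Named regions were the Cd4 region, up to 4 per gene list by number of RUNX motifs, genes with 3 or more regions, the 3 widest and 3 narrowest, and those next to each limit. A further few are named only as having a region. One region that the rule names is not reported here. One listed gene, Tespa1, was not matched to the annotation by name. Sequences are shown for a few windows that hold a RUNX motif and overlap no untranslated exon. The members, gene lists and motifs were chosen with earlier results of these data known. The alternatives were a 100 bp window, the whole region, flanks at 10 kb, a gap of 20 bp, protein-coding TSSs only, the nearest edge, a midpoint inside H3K4me1, 50% cover and autosomes only.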

Additional observations from a re-analysis of the deposited data

How the results depend on the processing

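Each of 19 results was recomputed under the alternatives, 66 values in all, of which 58 kept their direction and their side of the threshold or stayed within the interval or within 1.5 times the value reported. No paired analysis was possible because the repeats were joined before regions were called, and for the same reason no library could be left out. The odds ratio of a RUNX motif against proximal regions lost significance with the whole region (1.32, adjusted exact p = 0.417) and with a midpoint inside H3K4me1 (1.30, adjusted exact p = 0.176). Against remote regions, where no difference was detected, it turned to 0.986 with a 100 bp window. The share with a RUNX motif was 52.9% in 100 bp and 96.1% in the whole region (flanks of the same width 78.7%), and the share with an ETS motif near a RUNX motif was 26.7% at a gap of 20 bp. Distance from the nearest edge left 643 regions and raised the share with a marked midpoint to 94.6%. In these, the window searched, the gap allowed or the regions kept differ by construction. Chosen after seeing the data, flanks outside Runx3-bound regions and at least 1 kb from a TSS gave an odds ratio of 2.88 for TGCGGC (adjusted exact p = 0.00146), against 1.62 (adjusted exact p = 0.103) with all flanks, and 0.658 for GATA. One region per nearest gene, also chosen afterwards, changed no call among the 5 motif comparisons with proximal and remote regions (adjusted p between 3.78e-19 and 0.687). The number of regions ran from 611 with protein-coding TSSs only to 685 on autosomes. The lists give no height, summit or read count per region, so weak and strong binding could not be told apart.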

Other observations

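The central windows richest in RUNX motifs were at Sdccag8 (7 motifs, chr1:178922994-178923995), Lyl1 (6, chr8:87227010-87227818), Cops4 (5) and Xdh (5). They were chosen after their values were seen. The Sdccag8 window held 4 TGTGGC and 3 TGCGGC and no TGTGGT, whereas that of Lyl1, a blood transcription factor gene, held 4 TGTGGC and 2 TGTGGT. Both regions were fully covered by H3K4me1.

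Sdccag8, chr1:178923394-178923593: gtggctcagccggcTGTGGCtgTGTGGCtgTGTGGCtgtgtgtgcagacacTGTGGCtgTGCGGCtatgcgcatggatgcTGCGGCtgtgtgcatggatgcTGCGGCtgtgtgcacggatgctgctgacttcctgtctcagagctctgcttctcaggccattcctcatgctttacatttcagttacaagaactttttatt

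Lyl1, chr8:87227314-87227513: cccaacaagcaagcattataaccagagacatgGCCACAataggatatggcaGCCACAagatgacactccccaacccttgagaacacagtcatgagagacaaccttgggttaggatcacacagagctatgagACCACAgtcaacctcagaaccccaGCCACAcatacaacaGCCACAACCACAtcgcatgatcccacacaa

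For 15 of the 694 regions the nearest TSS was that of a microRNA gene. Of those with a microRNA symbol, Mir142, which is expressed across blood cells, had a region 1770 bp downstream of its start (chr11:87571591-87572682), 80.4% covered and with 3 RUNX motifs in the central 200 bp. Mir101a, Mir339 and Mir1957 had 1 region each, with 0, 1 and 0 motifs there. These are annotated hairpin starts, and the start of the primary transcript can lie elsewhere.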
